A study of Homo sapiens with 16 samples.

Results

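The BCL2 family genes examined here are 10 of the 57820 genes in the count table, taken by their symbols. Of these, 5 encode survival proteins (BCL2, BCL2L1, BCL2L2, MCL1 and BCL2A1) and 5 encode death proteins (BCL2L11, BMF, BID, BAK1 and BAD). RNA-seq was performed in 16 libraries of Jurkat and HSB-2, established T-ALL (T-cell acute lymphoblastic leukemia) cell lines that share aberrant TAL1 activation and intact USP7. In each line, 2 libraries came from wild-type cells, 2 from cells with a scrambled control, 2 from cells with USP7 shRNA-4057 and 2 from cells with USP7 shRNA-4058. The hairpins were delivered by lentivirus and target exon 21 (shRNA-4057) and exon 8 (shRNA-4058) of USP7, a deubiquitylating enzyme. Transduced cells were sorted for GFP or selected with puromycin, and the labels give neither the choice for each library nor whether replicates were separate transductions. The p-values therefore measure the spread between these libraries, which may be technical. Each line is a single culture model, and in bulk RNA fewer cells of a type and less RNA per cell cannot be told apart.

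Proteins of the BCL2 family decide whether the outer mitochondrial membrane stays intact. Survival proteins hold the pore-forming effectors BAK1 and BAX in check, and BH3-only death proteins such as BIM (encoded by BCL2L11), BMF, BID and BAD bind the survival proteins or engage the effectors directly. In developing and leukemic T cells, BCL2, BCL-XL (encoded by BCL2L1) and MCL1 are the survival proteins best known to set dependence, and BIM is a main mediator of thymocyte deletion. Family proteins are also controlled after transcription, MCL1 through rapid turnover and BAD through phosphorylation, which read counts do not show.

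The study concerned targets of E proteins, transcription factors that bind the E-box motif CANNTG as dimers, also together with TAL1. Promoter sequences (RefSeq, GRCh38.p14, from 250 bases before to 50 bases after a start) were found for 8 members in 15 windows, and none was found for BCL2L2 and MCL1. The motif CANNTG, which reads the same on both strands, was present in 7 of the 15 windows, against 68.7% of all 35116 promoter windows of 300 bases. Some windows of a gene overlap, and the same CACGTG of BID was counted at -106 and at -47 bases from neighbouring starts. The windows shown are those of BMF, BCL2A1 and BAK1, which had the smallest adjusted p of the 10 members for shRNA against scrambled cells in HSB-2, and of BCL2, which had the smallest in Jurkat. Capitals mark CANNTG, and all windows lie on the minus strand and are written 5′ to 3′ in the direction of the gene. The BMF windows are chr15:40106917-40107216 and chr15:40108830-40109129, that of BCL2A1 is chr15:79971147-79971446, that of BAK1 is chr6:33580227-33580526 and that of BCL2 is chr18:63319720-63320019.
BMF, downstream start: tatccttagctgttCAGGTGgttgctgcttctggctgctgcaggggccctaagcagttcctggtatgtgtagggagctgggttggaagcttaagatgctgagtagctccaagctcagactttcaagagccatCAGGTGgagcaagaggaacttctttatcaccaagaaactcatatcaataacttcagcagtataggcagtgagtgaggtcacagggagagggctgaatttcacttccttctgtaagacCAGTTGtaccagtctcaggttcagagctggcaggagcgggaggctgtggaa
BMF, upstream start: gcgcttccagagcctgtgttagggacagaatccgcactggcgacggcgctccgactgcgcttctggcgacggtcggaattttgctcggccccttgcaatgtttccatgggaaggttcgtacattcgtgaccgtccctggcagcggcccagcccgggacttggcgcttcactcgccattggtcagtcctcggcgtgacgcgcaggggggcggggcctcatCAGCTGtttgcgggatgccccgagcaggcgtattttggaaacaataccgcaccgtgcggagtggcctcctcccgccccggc
BCL2A1: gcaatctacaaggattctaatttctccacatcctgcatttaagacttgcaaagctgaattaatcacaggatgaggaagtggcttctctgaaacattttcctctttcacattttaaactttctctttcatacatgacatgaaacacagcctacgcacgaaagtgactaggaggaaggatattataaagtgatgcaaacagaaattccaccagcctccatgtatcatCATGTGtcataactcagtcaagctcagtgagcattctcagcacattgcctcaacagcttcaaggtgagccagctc
BAK1: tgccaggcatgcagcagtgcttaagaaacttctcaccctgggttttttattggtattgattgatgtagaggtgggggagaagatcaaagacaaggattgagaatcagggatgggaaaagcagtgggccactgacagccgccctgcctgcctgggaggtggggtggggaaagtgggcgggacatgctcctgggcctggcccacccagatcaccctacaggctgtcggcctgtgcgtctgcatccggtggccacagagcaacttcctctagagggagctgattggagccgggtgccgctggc
BCL2: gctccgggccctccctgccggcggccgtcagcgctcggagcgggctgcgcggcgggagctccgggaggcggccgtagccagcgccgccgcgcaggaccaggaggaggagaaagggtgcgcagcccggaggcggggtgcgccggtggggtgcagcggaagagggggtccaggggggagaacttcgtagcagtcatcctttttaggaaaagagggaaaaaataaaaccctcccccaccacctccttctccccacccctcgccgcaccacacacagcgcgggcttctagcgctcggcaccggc

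The downstream BMF window held 3 motifs (3 or more were found in 15.3% of all promoter windows), and the upstream BMF window held 1, CAGCTG, a word found in 17.9% of them. The BCL2A1 window held 1 motif, and the windows of BAK1 and BCL2 held none. A match is a string of letters and not a binding site.

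Total counts lay between 86.9 and 110 M (M, mega) in Jurkat and between 76.6 and 235 M in HSB-2. USP7, the targeted gene, lay between 384 and 396 CPM (read counts scaled to library size, normalised by TMM) in the 4 control libraries of Jurkat, between 140 and 145 CPM with shRNA-4057 and between 241 and 244 CPM with shRNA-4058. It lay in HSB-2 between 220 and 243 CPM in controls and between 144 and 162 CPM in the 4 shRNA libraries, so that shRNA and control libraries did not overlap in either line. All 6 T-lineage markers examined (CD2, CD3E, CD5, CD7, LCK and TAL1) were present in both lines, with CD2 between 0.785 and 4.96 CPM in HSB-2. The summed myeloid and erythroid markers stayed below 1 CPM in every library, with HBB at 0. The summed T-lineage level was lower in the shRNA libraries of Jurkat (1543 to 1722 CPM, against 1899 to 2051 CPM in controls) and higher in those of HSB-2 (2672 to 3085 CPM, against 2036 to 2359 CPM). Among 4 B-lineage genes, CD79A in Jurkat and PAX5 in HSB-2 were above 1 CPM on average. Their summed level in Jurkat was 35.4 to 64.5 CPM in controls and 21.8 to 22.9 CPM with shRNA, and in HSB-2 it was 1.17 to 3.21 CPM and 3.38 to 4.61 CPM. The part of these shifts in the results for the BCL2 family was not tested.

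The lines differed in the level of 4 of the 5 survival genes before any knock-down. In wild-type HSB-2, BCL2 stood at 209 and 214 CPM, against 37.5 and 35.6 CPM in wild-type Jurkat (log2 fold change of Jurkat against HSB-2 -2.53, SE 0.044, adjusted p 6.1e-24). MCL1 was lower in Jurkat by -1.32 (SE 0.035), BCL2L1 by -0.68 (SE 0.043) and BCL2A1 by -4.88 (SE 0.41) on the log2 scale. Of the death genes, BID (0.82, SE 0.052) and BAD (0.58, SE 0.066) were higher in Jurkat and BAK1 was lower (-0.30, SE 0.056). In all, 7 of 10 members were called between the wild-type lines, against 68.1% of all genes tested, so the share was near that of the transcriptome. BCL2L2, BCL2L11 and BMF were not called (-0.27, 0.03 and -0.11).

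Per kilobase of exon, which allows genes to be compared, MCL1 (52.6 CPM per kb) and BCL2L1 (42.6) led in wild-type HSB-2, followed by BAK1 (20.1) and BCL2 (16.7). In wild-type Jurkat the order by merged exon length was BCL2L1 (26.7), MCL1 (21.1), BID (18.3), BAK1 (16.3) and BAD (13.7), with BCL2 at 2.90 CPM per kb. The order turned in part with the length used: per kilobase of the canonical transcript, BID (36.5 and 37.8) passed MCL1 (33.6 and 32.9) and BAD (25.6 and 24.9) passed BAK1 (16.1 and 17.1) in wild-type Jurkat, and BCL2 (30.3 and 31.1) passed BAK1 (20.8 and 20.1) in wild-type HSB-2. BCL2L1 in Jurkat and MCL1 in HSB-2 were highest with either length. BCL2L2 lay at 0.440 and 0.528 CPM per kb in Jurkat and HSB-2, and BCL2A1 at 0.0498 and 1.60. Most of the survival signal in both lines thus came from BCL2L1 and MCL1, with BCL2 added in HSB-2.

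**Figure D1:**
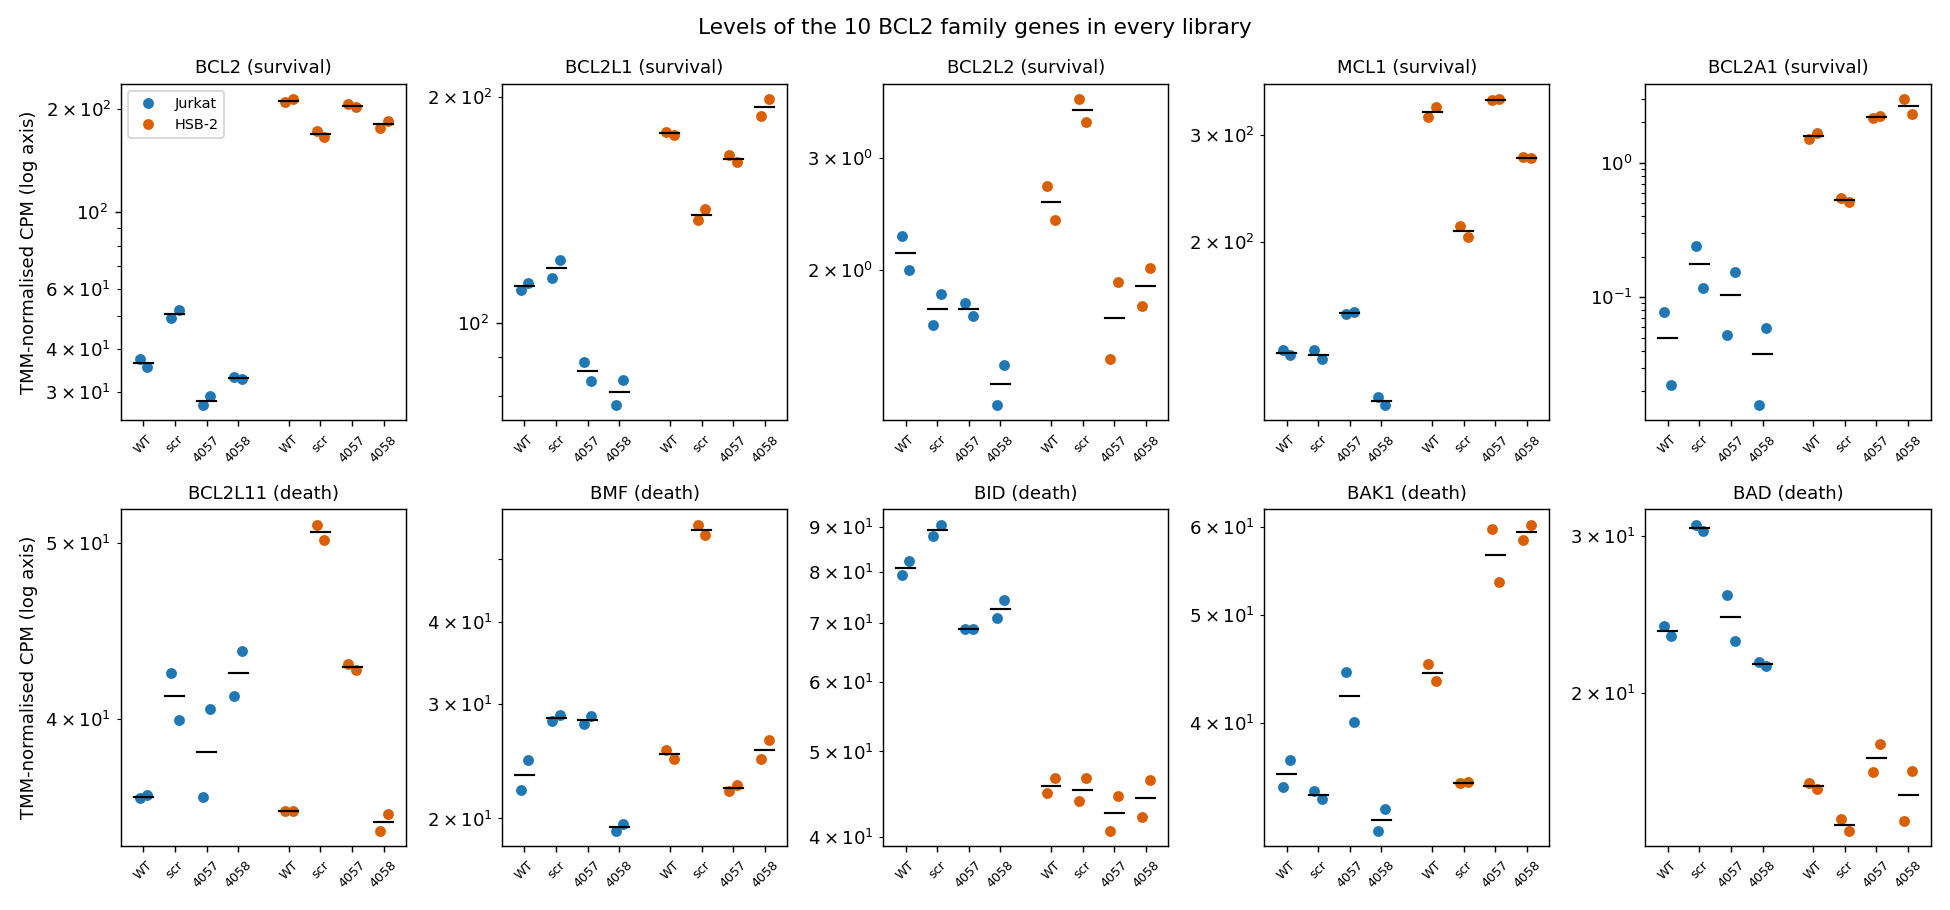
Normalised level (CPM, log axis that differs between panels) of each of the 10 genes in every library; points are libraries, black bars are means of 2 libraries, WT is wild-type and scr is scrambled. BCL2 lies between 27.5 and 51.9 CPM in Jurkat and between 166 and 214 CPM in HSB-2, and BMF is highest in the scrambled libraries of HSB-2, at 54.5 and 56.5 CPM.

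BCL2 (ENSG00000171791, chr18:60790579-60987361 of GRCh37, minus strand), the founding survival gene, was lower with USP7 shRNA in Jurkat. Its levels there were 37.5 and 35.6 CPM in wild-type, 49.2 and 51.9 CPM in scrambled, 27.5 and 29.2 CPM in shRNA-4057 and 33.1 and 32.7 CPM in shRNA-4058 libraries. All 4 shRNA libraries lay below both kinds of control, and the scrambled libraries lay highest. With the hairpins pooled, BCL2 fell by 0.70 on the log2 scale against scrambled cells (SE 0.093, adjusted p 0.0020, edgeR). In HSB-2 the levels were 209 and 214, 172 and 166, 206 and 202, and 176 and 184 CPM in the same order. Here the shRNA libraries lay between the scrambled and the wild-type ones, and the pooled log2 fold change against scrambled cells was 0.19 (SE 0.073, adjusted p 0.068), which was not called. BCL2 in HSB-2 was called with DESeq2 (0.20, adjusted p 0.048), with all genes kept (0.20, adjusted p 0.038), with the GC and length offset (0.27, adjusted p 0.0046), with the hairpins as separate groups (0.19, adjusted p 2.0e-05) and without shRNA-4058 replicate 1 (0.23, adjusted p 0.029), and stood at -0.14 against wild-type cells (adjusted p 0.19).

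BCL2L1 (ENSG00000171552, chr20:30252255-30311792, minus strand) differed from scrambled cells in opposite directions in the lines. In Jurkat it was 111 and 113 CPM in wild-type, 115 and 121 CPM in scrambled, 88.8 and 83.8 CPM in shRNA-4057 and 77.7 and 83.9 CPM in shRNA-4058 libraries. No shRNA library reached the level of any control library, and the pooled difference from scrambled cells was -0.48 (SE 0.068, adjusted p 0.0026). In HSB-2 it was 180 and 178, 137 and 142, 167 and 164, and 189 and 199 CPM in that order. The scrambled libraries were the lowest, and the wild-type libraries lay between the hairpins. BCL2L1 rose by 0.37 against scrambled cells (SE 0.082, adjusted p 0.0070).

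MCL1 (ENSG00000143384, chr1:150533371-150552214, minus strand) was called in HSB-2 and not in Jurkat with the hairpins pooled. Its levels in HSB-2 were 321 and 333 CPM in wild-type, 212 and 204 CPM in scrambled, 342 and 344 CPM in shRNA-4057 and 276 and 275 CPM in shRNA-4058 libraries. It rose by 0.58 against scrambled cells (SE 0.11, adjusted p 0.0029), while the wild-type libraries lay between the hairpins. In Jurkat it was 133 and 130, 133 and 128, 152 and 153, and 111 and 108 CPM. The hairpins stood on either side of the controls there, and the pooled value was 0.03 (SE 0.16, adjusted p 0.90).

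The remaining survival genes were low. BCL2A1 (ENSG00000140379, chr15:80253234-80263538, minus strand), an NF-kappa-B target in lymphoid cells, had 2 to 22 counts per Jurkat library, between 0.0158 and 0.239 CPM, where 3 counts correspond to 0.0237 to 0.0333 CPM. Its pooled value in Jurkat was -1.32 (SE 0.73, adjusted p 0.21). In HSB-2 it was 1.51 and 1.67 CPM in wild-type, 0.546 and 0.507 CPM in scrambled, 2.14 and 2.21 CPM in shRNA-4057 and 2.98 and 2.30 CPM in shRNA-4058 libraries. All shRNA libraries lay above both kinds of control, and BCL2A1 rose by 2.20 against scrambled cells (SE 0.20, adjusted p 5.8e-05). BCL2L2 (ENSG00000129473, chr14:23767999-23780960, plus strand), which encodes BCL-W, fell by 1.003 in HSB-2 (SE 0.15, adjusted p 0.0010), from 3.72 and 3.43 CPM in scrambled to 1.45, 1.91, 1.75 and 2.01 CPM in shRNA libraries, with 2.71 and 2.40 CPM in wild-type cells. In Jurkat its pooled value was -0.16 (SE 0.19, adjusted p 0.55).

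BMF (ENSG00000104081, chr15:40380091-40401093, minus strand), a BH3-only gene whose protein is held at the cytoskeleton, showed the greatest separation in HSB-2 by adjusted p. Its levels there were 25.5 and 24.7 CPM in wild-type, 56.5 and 54.5 CPM in scrambled, 22.1 and 22.5 CPM in shRNA-4057 and 24.7 and 26.4 CPM in shRNA-4058 libraries. BMF fell by 1.21 against scrambled cells (SE 0.075, adjusted p 6.4e-06), yet the scrambled libraries alone were high and the shRNA libraries lay beside the wild-type ones. In Jurkat it was 22.1 and 24.6, 28.2 and 28.8, 27.9 and 28.8, and 19.1 and 19.6 CPM. Only shRNA-4058 left the range of the controls, and the pooled value was -0.23 (SE 0.18, adjusted p 0.36).

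BCL2L11 (ENSG00000153094, chr2:111876955-111926021, plus strand), which encodes BIM, was likewise highest in the scrambled libraries of HSB-2, at a smaller size of difference. It was 35.6 and 35.6 CPM in wild-type, 51.2 and 50.2 CPM in scrambled, 42.9 and 42.6 CPM in shRNA-4057 and 34.7 and 35.4 CPM in shRNA-4058 libraries. It fell by 0.38 against scrambled cells (SE 0.097, adjusted p 0.014), and shRNA-4057 lay above and shRNA-4058 beside the wild-type libraries. In Jurkat all 8 libraries lay between 36.1 and 43.6 CPM and the pooled value was -0.003 (SE 0.087, adjusted p 0.98).

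BID (ENSG00000015475, chr22:18216904-18257536, minus strand) links death receptors to mitochondria after cleavage, and BAD (ENSG00000002330, chr11:64037302-64052176, minus strand) is a phosphorylation-controlled BH3-only gene. In Jurkat, BID was 79.4 and 82.4 CPM in wild-type, 87.9 and 90.6 CPM in scrambled, 69.0 and 69.0 CPM in shRNA-4057 and 70.9 and 74.3 CPM in shRNA-4058 libraries. It fell by 0.31 against scrambled cells (SE 0.062, adjusted p 0.0099), and no shRNA library overlapped with a control library. BAD was 23.8 and 23.2, 30.9 and 30.4, 25.8 and 22.9, and 21.6 and 21.4 CPM in that order and fell by 0.40 (SE 0.090, adjusted p 0.016), but the shRNA libraries overlapped with the wild-type ones. In HSB-2 neither was called, with -0.06 (SE 0.068, adjusted p 0.55) for BID and 0.18 (SE 0.089, adjusted p 0.13) for BAD.

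BAK1 (ENSG00000030110, chr6:33540324-33548070, minus strand), which encodes a pore-forming effector, rose in HSB-2. It was 45.2 and 43.6 CPM in wild-type, 35.3 and 35.4 CPM in scrambled, 59.7 and 53.6 CPM in shRNA-4057 and 58.4 and 60.3 CPM in shRNA-4058 libraries. All 4 shRNA libraries lay above both kinds of control, and the pooled difference from scrambled cells was 0.72 (SE 0.065, adjusted p 5.0e-05). In Jurkat it was 35.0 and 37.03, 34.8 and 34.2, 44.5 and 40.1, and 32.0 and 33.5 CPM. The shRNA-4057 libraries lay above the controls there and the shRNA-4058 libraries below them, and the pooled value was 0.14 (SE 0.13, adjusted p 0.44).

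Against scrambled cells, 4 of 10 members were called in Jurkat, all lower (BCL2, BCL2L1, BID and BAD), where 28.0% of all genes were called. Of the 10, 7 were called in HSB-2, with BCL2L1, MCL1, BCL2A1 and BAK1 higher and BCL2L2, BCL2L11 and BMF lower, where 38.1% of all genes were called. The median log2 fold change of the 10 members was -0.27 in Jurkat and 0.19 in HSB-2, beside 0.02 and -0.02 over all genes tested. In Jurkat, 4 members had all shRNA libraries above or below the scrambled ones (53.9% of all genes), and 3 did so against scrambled and wild-type libraries together (30.4%), namely BCL2, BCL2L1 and BID, all lower. In HSB-2 these numbers were 8 (57.4%) and 3 (33.4%), the latter being BCL2A1 and BAK1 above and BCL2L2 below. Without Jurkat scrambled replicate 1 the members called in Jurkat numbered 2 (BCL2 and BCL2L1), and without scrambled replicate 2 there was 1 (BCL2). In HSB-2 without scrambled replicate 1 or 2, 5 and 6 were called, with BCL2L11 lost in both and BCL2L1 lost without replicate 1, and the lone scrambled library was assumed to vary like the others.

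**Figure D2:**
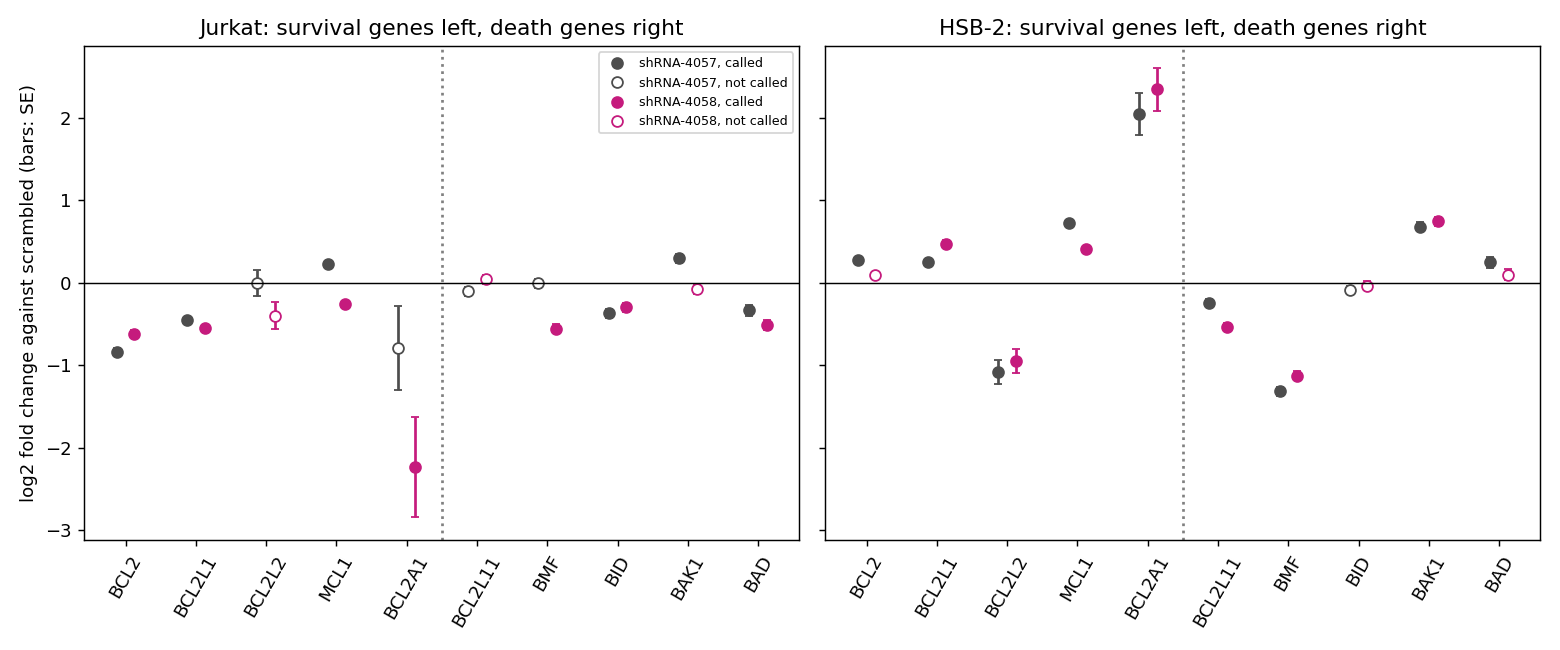
Log2 fold change of each gene against scrambled cells for shRNA-4057 and shRNA-4058 in Jurkat (left) and HSB-2 (right), with bars of 1 SE; filled points passed an adjusted p of 0.05. In HSB-2 BMF lies at -1.32 and -1.13 and BCL2A1 at 2.04 and 2.34, and in Jurkat BCL2 and BCL2L1 lie below 0 with either hairpin.

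For each hairpin against scrambled cells, 6 of 10 members were called with shRNA-4057 in Jurkat (50.0% of all genes) and 7 with shRNA-4058 (46.5%). HSB-2 had 9 called members with shRNA-4057 (43.6%) and 7 with shRNA-4058 (52.8%). The effects of both hairpins rest on the same scrambled libraries. Set against each other, the hairpins differed in 6 members in Jurkat (33.9% of all genes) and in 5 in HSB-2 (24.8%). MCL1 was higher with shRNA-4057 than with shRNA-4058 in both lines, by 0.48 in Jurkat (SE 0.035, adjusted p 1.4e-10) and by 0.32 in HSB-2 (SE 0.034, adjusted p 2.7e-07). BCL2 was lower with shRNA-4057 in Jurkat (-0.22, SE 0.045) and higher in HSB-2 (0.18, SE 0.041), and BMF was higher in Jurkat (0.55, SE 0.056) and lower in HSB-2 (-0.19, SE 0.057). BCL2L11 likewise was lower in Jurkat (-0.15) and higher in HSB-2 (0.29), while BAK1 differed in Jurkat (0.37) and was not called in HSB-2 (-0.07). BCL2L1 was called in HSB-2 (-0.23), and BAD was called in Jurkat (0.18, adjusted p 0.038; 0.16 and not called with RLE size factors, 0.040 and not called once GC content and length entered as an offset). USP7 itself was lower with shRNA-4057 than with shRNA-4058, by 0.77 on the log2 scale in Jurkat and by 0.12 in HSB-2. BCL2A1 with shRNA-4058 in Jurkat (-2.23, SE 0.61) was called on 2 and 7 counts against 22 and 11, and was not called without scrambled replicate 1 (-1.64) or shRNA-4058 replicate 1 (-1.56).

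The scrambled and wild-type libraries, neither of which carries a USP7 hairpin, differed from each other in these genes. In HSB-2, 8 of 10 members were called between them (34.1% of all genes). BMF was higher in scrambled cells by 1.14 (SE 0.054, adjusted p 5.2e-14), BCL2L11 by 0.51 (SE 0.051) and BCL2L2 by 0.47 (SE 0.14). BCL2A1 (-1.59, SE 0.26), MCL1 (-0.65, SE 0.034), BCL2L1 (-0.36, SE 0.042), BAK1 (-0.33, SE 0.055) and BCL2 (-0.32, SE 0.040) were lower in scrambled cells. In Jurkat, 6 of 10 were called (25.9% of all genes), all higher in scrambled cells: BCL2 (0.47, SE 0.044), BCL2A1 (1.72, SE 0.59, on 22 and 11 counts against 9 and 2), BAD (0.38), BMF (0.29), BCL2L11 (0.18) and BID (0.14). Leaving out 1 library left 3 to 5 of them called, the fewest without scrambled replicate 1, and BID was not called without any of the 4 libraries. With the GC and length offset, BAK1 was called too, and was lower in scrambled cells (-0.16, adjusted p 0.0039).

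With wild-type cells as the control, fewer members were called. In Jurkat, 1 of the 9 members tested was called (8.41% of all genes): BCL2L1 at -0.39 (SE 0.066, adjusted p 0.016). BCL2 stood at -0.22 (SE 0.095, adjusted p 0.18), BID at -0.16 (SE 0.063, adjusted p 0.15) and BAD at -0.01 (SE 0.091, adjusted p 0.98), and BCL2A1 was too low to be tested. In HSB-2, 3 of 10 were called (25.1%): BAK1 at 0.38 (SE 0.062, adjusted p 0.0036), BCL2A1 at 0.60 (SE 0.18, adjusted p 0.039) and BCL2L2 at -0.53 (SE 0.16, adjusted p 0.045). MCL1 (-0.08, SE 0.11), BCL2L1 (0.002, SE 0.079), BCL2L11 (0.12, SE 0.10) and BMF (-0.08, SE 0.079) were not called. With 1 pair of scrambled libraries in each line, what sets these scrambled cells apart and what the loss of USP7 does cannot be told apart in the comparisons against them. The wild-type libraries are labelled WT alone. If those cells were not transduced or selected, comparisons against wild-type also hold both steps, which cannot be told apart from the loss of USP7.

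**Figure D3:**
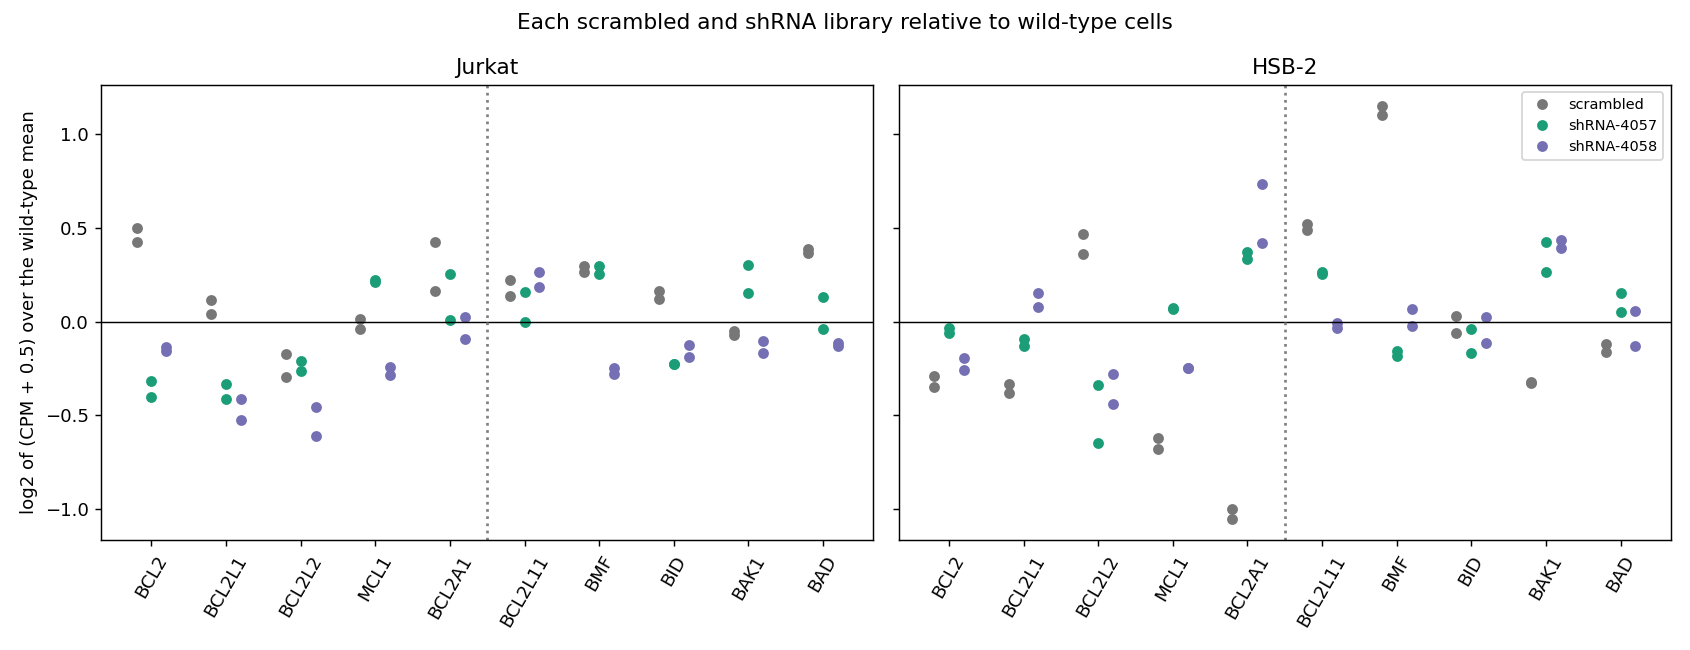
Log2 of the level (CPM + 0.5) of each scrambled and shRNA library over the wild-type mean of its line, for each gene, in Jurkat (left) and HSB-2 (right); 0 is the wild-type mean and the dotted line separates survival genes from death genes. In HSB-2 the grey scrambled points stand farthest from 0 for BMF, MCL1 and BCL2A1, and BAK1 lies below 0 in scrambled and above 0 in shRNA libraries.

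The effect of USP7 shRNA against scrambled cells differed between the lines for 9 of 10 members by the interaction term, where 37.7% of all genes were called. The knock-down was itself unequal: USP7 stood at -1.43 in Jurkat and -0.61 in HSB-2 with shRNA-4057, and at -0.67 and -0.49 with shRNA-4058. With the hairpins pooled, its interaction was 0.45 and not called (adjusted p 0.21). The part of this inequality in the differences between the lines was not tested. Subtracting the Jurkat effect from the HSB-2 effect gave 3.57 for BCL2A1 (SE 0.66, adjusted p 0.0010), 0.91 for BCL2 (SE 0.12, adjusted p 0.00010), 0.87 for BCL2L1 (SE 0.12, adjusted p 9.2e-05), 0.60 for BAD, 0.60 for BAK1, 0.57 for MCL1 and 0.28 for BID. The BCL2A1 value rests on 2 to 22 counts per Jurkat library and was 0.25, not called, with wild-type cells as the control of both lines. With an offset for GC content and length, BID, BAK1 and BAD were not called (0.20, 0.33 and 0.35). The difference was -0.96 for BMF (SE 0.21, adjusted p 0.0035) and -0.82 for BCL2L2 (SE 0.26, adjusted p 0.024), while BCL2L11 at -0.35 (adjusted p 0.065) was not called. BCL2L11 was called with at least 10 counts in every library (-0.40, adjusted p 0.042). With the hairpins taken singly, which was not planned, it was called for shRNA-4058 (-0.58, adjusted p 3.8e-07) and not for shRNA-4057 (-0.14, adjusted p 0.11). With wild-type cells as the control of both lines, an alternative added after the data were seen, 1 of 10 was called, against 19.1% of all genes: BCL2L1 at 0.44 (SE 0.12, adjusted p 0.023). Without any 1 of the 4 scrambled libraries, 6 of the 9 calls against scrambled cells were left, and MCL1, BCL2L2 and BID were lost each time.

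The summed levels per kilobase give the balance of survival and death genes in each library, as a description without a test. Which sum was the larger depended on the genes taken and on the division by length. BAX, not among the 5 death genes, stood at 31.6 CPM per kb in scrambled HSB-2 cells and at 42.0 and 44.4 with shRNA-4057 and shRNA-4058. Without division by length, MCL1 and BCL2L1 stood at 131 and 112 CPM in wild-type Jurkat, and BID, the highest death gene, at 80.9 CPM. In Jurkat the survival sum was 51.3 and 51.1 CPM per kb in wild-type, 53.2 and 54.1 in scrambled, 48.2 and 47.4 in shRNA-4057 and 39.2 and 40.2 in shRNA-4058 libraries, and the death sum was 57.1 and 58.8, 65.2 and 65.0, 61.3 and 58.4, and 52.8 and 54.6. Both sums were lower in all shRNA than in the scrambled libraries. The log2 ratio of survival over death was -0.18 ± 0.033 (SD, n = 2) in wild-type, -0.28 ± 0.021 in scrambled, -0.32 ± 0.033 in shRNA-4057 and -0.43 ± 0.0080 in shRNA-4058 cells. The mean of the shRNA libraries was thus 0.10 log2 units below scrambled and 0.20 below wild-type cells.

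In HSB-2 the survival sum was 113 and 115 CPM per kb in wild-type, 81.8 and 80.9 in scrambled, 114 and 113 in shRNA-4057 and 107 and 109 in shRNA-4058 libraries. The death sum was 49.8 and 49.2, 52.3 and 52.2, 56.1 and 55.0, and 54.0 and 57.4. The survival sum was thus lowest in scrambled cells, and the death sum was higher in each shRNA library than in each control library. The log2 ratio was 1.205 ± 0.031 (SD, n = 2) in wild-type, 0.64 ± 0.0085 in scrambled, 1.03 ± 0.015 in shRNA-4057 and 0.95 ± 0.041 in shRNA-4058 cells. The shRNA libraries therefore lay 0.35 log2 units above scrambled cells and 0.21 below wild-type cells, so the sign depended on the control. MCL1 made up 38.0% to 51.9% of the survival sum in Jurkat and 40.5% to 49.0% in HSB-2.

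**Figure D4:**
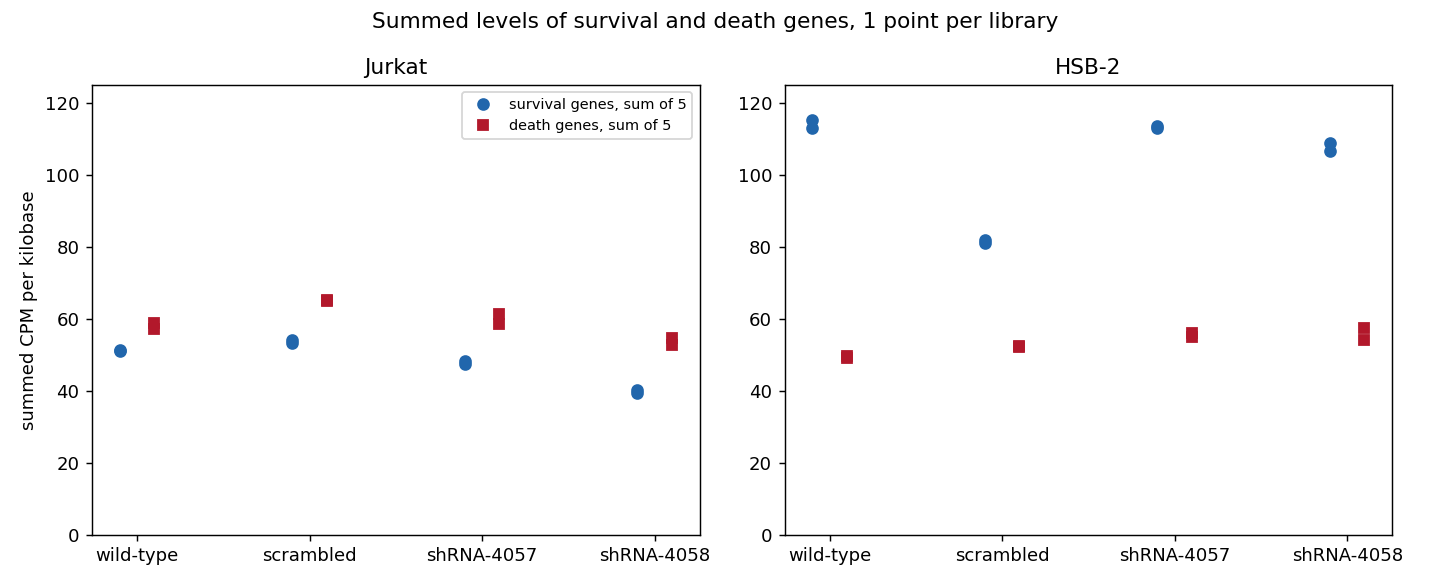
Summed CPM per kilobase of the 5 survival genes (circles) and the 5 death genes (squares) in each library of Jurkat (left) and HSB-2 (right), by group. For these genes per kilobase of merged exons, death sums exceed survival sums in every Jurkat library, and survival sums are larger in every HSB-2 library. The survival sum of HSB-2 is lowest in scrambled cells at 81.8 and 80.9. Which sum is larger depends on the genes and the scaling.

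Further genes of the same pathway were taken from lists of family members, caspase pathway genes and known regulators. Of 13 other family genes, 11 were tested in Jurkat and 7 were called, 1 higher and 6 lower; 12 were tested in HSB-2 and 7 were called, all higher, where 28.0% and 38.1% of all genes were called. The effector BAX fell by 0.40 in Jurkat (SE 0.067, adjusted p 0.0051) and rose by 0.46 in HSB-2 (SE 0.061, adjusted p 0.00051). In HSB-2, BAX lay between 78.6 and 84.7 CPM in the 4 control libraries and between 107 and 119 CPM in the 4 shRNA libraries, so it rose against wild-type cells too (0.46, adjusted p 0.00099). BCL2L12 (-0.42 in Jurkat and 0.53 in HSB-2) and BCL2L13 (-0.35 and 0.29) were likewise lower in Jurkat and higher in HSB-2. PMAIP1, which encodes the BH3-only protein NOXA, was higher than in scrambled cells in HSB-2 (0.73, SE 0.079, adjusted p 0.00015) and stood at -0.11 in Jurkat (adjusted p 0.44). Its HSB-2 means were 15.1 CPM in wild-type, 10.5 in scrambled, 18.0 in shRNA-4057 and 16.7 in shRNA-4058 cells. The scrambled cells were thus lowest, and the shRNA means lay nearer to wild-type.

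Of 17 caspase pathway genes, 5 were called in Jurkat, of which 4 were lower, and 5 in HSB-2, all higher, so that the share was near that of all genes in Jurkat (28.0%) and below it in HSB-2 (38.1%). The inhibitor of apoptosis gene BIRC5 (-0.26 and 0.28) and the mitochondrial protease gene HTRA2 (-0.33 and 0.28) were lower in Jurkat and higher in HSB-2. CASP8, the initiator caspase of death receptors, was higher than in scrambled cells in both lines (0.60 and 0.44). In Jurkat its mean was 82.6 CPM in wild-type, 62.8 in scrambled, 110 in shRNA-4057 and 77.7 in shRNA-4058 cells, so shRNA-4058 lay below wild-type. In HSB-2 the means were 99.8, 84.2, 105 and 124 CPM in that order. Of 14 regulators, 4 were called in Jurkat, of which 3 were higher, and 9 in HSB-2, of which 6 were higher, beside the same 28.0% and 38.1% of all genes. The kinase gene PIM2, whose protein phosphorylates BAD, fell by 0.41 in Jurkat and rose by 1.01 in HSB-2, and PIM1 rose by 0.94 in HSB-2 (-0.11 in Jurkat, not called). FOXO1, a transcription factor that activates BCL2L11, was higher than in scrambled cells in both lines (1.59 and 0.24), and FOXO3 rose in HSB-2 (0.53) with 0.20 in Jurkat, not called. Against wild-type cells in HSB-2, 6 of 12 other family genes, 1 of 17 caspase pathway genes and 7 of 14 regulators were called, where 25.1% of all genes were. In Jurkat edgeR called 0 of 11 other family genes (6 had an unadjusted p under 0.05), 0 of 17 caspase pathway genes (4 did) and 1 of 14 regulators against wild-type cells, where 8.41% of all genes were called.

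Several members share exon sequence with other genes, and the strand setting of the counting was not given in the sources used here, so their counts are uncertain to that extent. BCL2L2 shares 815 exonic bases with the read-through gene BCL2L2-PABPN1 and 315 with PPP1R3E on the other strand, which was itself lower with shRNA (-0.59 in Jurkat and -1.05 in HSB-2). BCL2L11 shares 727 bases with MIR4435-2HG on the other strand, which rose by 1.63 in HSB-2 while BCL2L11 fell. BAD shares 404 bases with GPR137 (0.44 in HSB-2), BCL2L1 shares 1735 with ABALON, BMF shares 461 with BMF-AS1, and MCL1 shares 328 with ADAMTSL4-AS1. The part of these overlaps in the results was not tested.

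After each line's mean was subtracted, the genes whose log2 level followed a member most closely over the 16 libraries were listed as a description, up to 3 for each member, among 13678 genes averaging 1 CPM or more. BAK1 was followed by INPP5D (Pearson's r 0.99), FAM110A (0.98) and CD53 (0.97), and BCL2A1 by SLC8A3 (0.98) and FCMR (0.97). BCL2L1 was followed by SLC39A7, MAGED2 and CCDC167 (0.97 to 0.96), BCL2 by EXOSC1, SLA and CPNE1 (0.96 to 0.95), MCL1 by KIF4A, PHLDB2 and TRAF4 (0.95 to 0.93) and BMF by CST7, ARHGEF17 and APOLD1 (0.95 to 0.91). BID was followed by ZNF521, CDR2 and POLE4, BAD by PKIG, FANCG and PPP4C, BCL2L11 by ZBTB18, RPS3AP54 and VDAC1 and BCL2L2 by UNC13B, ENSG00000244560 and DCAF8 (0.95 to 0.90). Between members, the values farthest from 0 were 0.83 for BCL2A1 and BAK1, 0.79 for BMF and BCL2L2, 0.77 for BCL2 and BID, -0.77 for BCL2A1 and BCL2L2, -0.76 for BCL2A1 and BMF and 0.75 for BCL2 and BAD. These points share their libraries, depth and group structure, so the values carry no test.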

How the data were processed

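RNA-seq was performed on 16 libraries (2 for each of 8 groups). Per the labels, total RNA was depleted of ribosomal RNA, prepared with a stranded kit and sequenced on a NovaSeq instrument. According to the study's methods and processing notes, reads were mapped with BWA and STAR in an in-house pipeline against GRCh37 (hg19), and the authors counted reads per gene with HTSeq 0.6.1p1. The deposited values were raw counts per Ensembl gene, neither normalised nor pooled. The strand setting and annotation release were not given in the sources used here. Symbols were matched to 96.1% of the 57820 gene IDs through a table of gene names, including all 10 members. Coordinates and exon lengths came from GENCODE release 44 mapped to GRCh37.

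Counts were compared in R 4.3.3 with edgeR 4.0.16 (filterByExpr, TMM factors from 0.882 to 1.15, quasi-likelihood F-test, Benjamini-Hochberg adjustment over all genes tested), and a gene was called at an adjusted p under 0.05. Adjusted p-values are from this test unless DESeq2 is named. SE is the absolute log2 fold change divided by the square root of F. Pooled comparisons set 4 shRNA against 2 control libraries of a line, so hairpin differences entered the error. The 2 libraries of a hairpin were still counted as separate replicates, so the pooled tests rest on 2 hairpins and not on 4 independent knock-downs. Hairpins, controls and lines were compared in a fit of all 16 libraries as 8 groups, and the interaction was fitted on 12 libraries, without wild-type. Levels are TMM-normalised CPM, and levels per length are CPM per kilobase of merged exons. The balance is log2 of the summed survival over the summed death level per kilobase. A count floor of 3 covers counting error only. No replicate pair agreed within sampling noise. Procedures were tested on simulated data. Alternatives included DESeq2 1.42.0, RLE size factors, other filters, an offset for GC content and length, other controls, a replicate block and leaving out each library.

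The members, gene lists and tests were chosen with earlier results of these data known. All 10 members were named, and from each further list up to 4 genes were named, first those called in both lines by the larger adjusted p and then those called in 1 line. A few genes that these rules would name are not reported here. The 5 printed promoters were chosen after their genes' values were seen.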

Additional observations from a re-analysis of the deposited data

Results flagged for a closer look

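In 9 of the 10 members the effect of USP7 shRNA against scrambled cells differed between the lines by the interaction term, as in 37.7% of all genes. The differences (HSB-2 less Jurkat, log2 scale) were 0.91 for BCL2, 0.87 for BCL2L1, -0.82 for BCL2L2, 0.57 for MCL1, 3.57 for BCL2A1, -0.96 for BMF, 0.28 for BID, 0.60 for BAK1 and 0.60 for BAD, with adjusted p between 9.2e-05 and 0.044 by edgeR. The BCL2A1 difference rests on 2 to 22 counts per Jurkat library. USP7 itself fell unequally in the lines, at -1.43 in Jurkat and -0.61 in HSB-2 with shRNA-4057, and the part of this was not tested. Against wild-type cells, only BCL2L1 was called of the 10, at 0.44, beside 19.1% of all genes. Within the 4 shRNA libraries of each line, the gap of the most distant library was under the 95% critical value of Dixon in all 20 sets tested. Each set holds 2 libraries of each of 2 hairpins, so a difference between hairpins can hide an outlying library. The rate of about 5% marked by chance holds for 4 libraries of 1 kind, which these are not.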

How the results depend on the processing

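Counts of called members stayed within 1.5 times of the main count under RLE size factors, DESeq2, both filters, the GC and length offset and the replicate block, in all 12 comparisons. The choice of control moved them: against wild-type cells, 1 was called in Jurkat, 3 in HSB-2 and 1 by the interaction, and with both controls joined 3 were called in HSB-2. With the hairpins as separate groups 7 were called in Jurkat. By the interaction, the 9 calls became 8 with all genes kept (8101 over all genes) and 6 with the offset (8780). With 10 counts in every library, 7 of 9 members tested were called (7603 over all genes). BID was lost in each of these settings, and MCL1 with 10 counts in every library. Over all genes, 5965 were called in Jurkat and 1798 against wild-type cells, 11507 with separate hairpins and 1873 and 1434 without scrambled replicate 1 and 2; in HSB-2 the 8049 became 5010, 12128, 3801 and 4518, and the 8559 of the interaction became 4338 against wild-type cells. Leaving out 1 library gave 1 to 4 calls in Jurkat pooled, 5 to 9 in HSB-2 pooled, 6 to 9 by the interaction and 3 to 5 for Jurkat scrambled against wild-type. The balance in Jurkat (-0.10) became -0.50 as a median of log2 levels, -0.33 without MCL1 and -0.20 against wild-type cells, and in HSB-2 (0.35) it became 0.55 without division by length, 0.29 as a median, 0.25 without MCL1, 0.11 with other family genes added and -0.21 against wild-type cells. The cause was not tested.

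Replicate numbers were not taken as pairs, since correlations of same-numbered deviations lay between -0.14 and 0.15; in Jurkat they were 0.13 to 0.15 among wild-type, scrambled and shRNA-4058 libraries and negative for shRNA-4057 with each of them. With a replicate block 7 members were called by the interaction in place of 9 (MCL1 at 0.57 and BID at 0.28 were lost), and no other call changed. Crossing the numbers of shRNA-4057, chosen after seeing the data, gave 7 calls between the hairpins in Jurkat and 9 for shRNA-4057 in HSB-2, with 8737 in place of 7817 and 10875 in place of 10046 over all genes.

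Signs changed in 22 of 817 values of single members under other settings and in 18 of 600 with 1 library left out. Against wild-type cells these were BCL2L11 (0.19) and BMF (0.061) in Jurkat, BCL2 (-0.14), MCL1 (-0.085) and BCL2L11 (0.12) in HSB-2, and MCL1 (-0.068) by the interaction, and of these MCL1 and BCL2L11 in HSB-2 and MCL1 by the interaction had been called. The other changes were of values not called: BCL2L11 in Jurkat pooled (6.3e-05 with RLE, 8.4e-05 with DESeq2, 0.018 with all genes, 0.032 with 10 counts in every library, 0.097 against both controls), BID for shRNA-4058 in HSB-2 (0.025 with RLE, 0.026 with DESeq2), BCL2L2 (0.030 with 10 counts, 0.022 with the offset) and BMF (0.025 with 10 counts) for shRNA-4057 in Jurkat and, with the offset, BAK1 (0.080) for shRNA-4058 in Jurkat, BAD (-0.12) for shRNA-4058 in HSB-2, BAK1 (0.017) between hairpins in HSB-2, MCL1 (0.023) for scrambled in Jurkat, BID (0.0037) for scrambled in HSB-2 and BCL2L11 (-0.046) between the lines. With 1 library left out the ranges that crossed 0 were, in Jurkat, BCL2L11 (-0.045 to 0.057) and MCL1 (-0.051 to 0.12) pooled, BCL2L11 with shRNA-4058 (-0.00081 to 0.085), BCL2L2 (-0.081 to 0.10) and BMF (-0.029 to 0.033) with shRNA-4057 and MCL1 in scrambled cells (-0.039 to 0.0063), and in HSB-2 BID with shRNA-4058 (-0.080 to 0.036) and in scrambled cells (-0.059 to 0.030), and between hairpins BAK1 (-0.15 to 0.0087), BCL2L2 (-0.36 to 0.043) and BID (-0.12 to 0.011). Depth limited BCL2A1 in Jurkat, at 2 to 22 counts per library.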
